A study of Homo sapiens with 24 samples.

Results

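The response of U937 cells to the G9a/GLP inhibitor UNC0638 was set against their response to G9a knockdown, gene by gene and repeat by repeat. U937 is a human monocytic cell line, derived from a histiocytic lymphoma. The inhibitor arm is the log2 change at 4 µM UNC0638 against cells given DMSO, and the knockdown arm is the mean log2 change of G9a hairpins 2 and 3, weighted equally, against a scrambled hairpin. The difference of responses is the inhibitor arm minus the knockdown arm, so a positive value means a higher change under the inhibitor. These 5 groups hold 3 libraries each, 15 of the 24 RNA-seq libraries of the series. The other libraries (2 µM UNC0638 and hairpins 2 and 4 against SUV39H1) entered the estimate of the spread. The 2 µM libraries also gave an alternative inhibitor arm, and the SUV39H1 hairpins were set beside the knockdown classes. Inhibitor-treated cells were harvested after 3 days, while hairpin cells carried a lentiviral shRNA and were selected for 3 days in puromycin. Each arm therefore has its own control. The DMSO libraries are titled Mock, and the labels do not say whether those cells were transduced or selected. The labels do not say whether the 3 libraries of a group came from separate cultures, so every p-value measures the spread between these libraries, which may be technical.

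G9a (gene EHMT2) and GLP (gene EHMT1) form a heterodimer that places mono- and dimethyl marks on lysine 9 of histone H3, marks linked to silent genes and repeats. UNC0638 blocks the substrate pocket of both enzymes and leaves the proteins in place. A hairpin removes the messenger RNA, and with it part of the protein, of G9a alone. The series asks, by its title, whether this mark keeps cancer cells from activating interferon signalling, in which secreted interferons act through JAK kinases, STAT2 and IRF9, among other factors, on genes with an interferon-stimulated response element.

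EHMT2 itself marked the arms. Its level was 127, 147 and 163 CPM (reads counted for the gene, scaled to a common library total by library size and TMM factor) in the DMSO libraries and 124, 131 and 142 at 4 µM. It was 139, 139 and 154 with the scrambled hairpin, 76.8, 71.3 and 73.0 with hairpin 2, and 70.6, 77.4 and 71.6 with hairpin 3. The hairpin libraries lay below every control library, and the 4 µM libraries overlapped the DMSO libraries. The knockdown log2 change was -0.97 ± 0.05 (SE) and the inhibitor log2 change -0.14 ± 0.06, with edgeR's quasi-likelihood adjusted p of 9.2e-14 and 0.13. EHMT1 did not pass the test in either arm (-0.11 ± 0.04 with the inhibitor and -0.07 ± 0.04 with the hairpins). Total RNA counts do not measure protein or the histone mark.

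A gene was called in a comparison when its adjusted p was under 0.05 over the 20147 genes tested. The difference of responses was called for 9020 genes (44.8%), of which 4528 (22.5%) were positive and 4492 (22.3%) negative. At least a 2-fold difference was fitted for 576 of the positive and 632 of the negative genes. The inhibitor arm alone held 4012 called genes (19.9%; 2052 higher, 10.2%, and 1960 lower, 9.73%). The knockdown arm held 10058 (49.9%; 5038 higher, 25%, and 5020 lower, 24.9%). Of the 9020 genes, 7584 were also called in the same direction when each hairpin was used alone, against the same inhibitor arm and scrambled libraries (hairpin 2 alone called 41.8% of genes and hairpin 3 alone 42.2%). The hairpins differed from each other at 2 genes (0.00993%), EGR1 and HSPA6.

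Of the 2698 genes called in both arms, 1922 (71.2%) moved in opposite directions and 776 (28.8%) in the same direction. Most of these changes were small: at least a 2-fold change in both arms was fitted for 61 of the opposite and 19 of the agreeing genes. Among the opposite genes, 918 (4.56% of genes tested) were higher with the inhibitor and lower with the hairpins, and 1004 (4.98%) were lower with the inhibitor and higher with the hairpins. Among the agreeing genes, 444 (2.2%) were higher in both arms and 332 (1.65%) lower in both. A gene counted as moving in 1 arm only when that arm was called, the other was not, and the difference itself was called. By that rule 476 genes were higher (2.36%) and 444 lower (2.2%) with the inhibitor only. With the hairpins only, 2579 were higher (12.8%) and 2746 lower (13.6%). These last 2 classes were not particular to G9a hairpins. With the SUV39H1 hairpins against the same scrambled libraries, 1904 of the 2579 and 2000 of the 2746 were called in the same direction. Among all 20147 genes, 10735 were called there in the direction of the knockdown arm. A further 2429 genes (12.1%) were called in 1 arm without a called difference, so neither agreement nor divergence is shown for them, and 8775 (43.6%) were called in neither arm. Across all 20147 genes the arms had a Pearson correlation of -0.178 and a Spearman correlation of -0.226. This is a description across genes, which are not independent replicates, and the arms share no library.

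**Figure D1:**
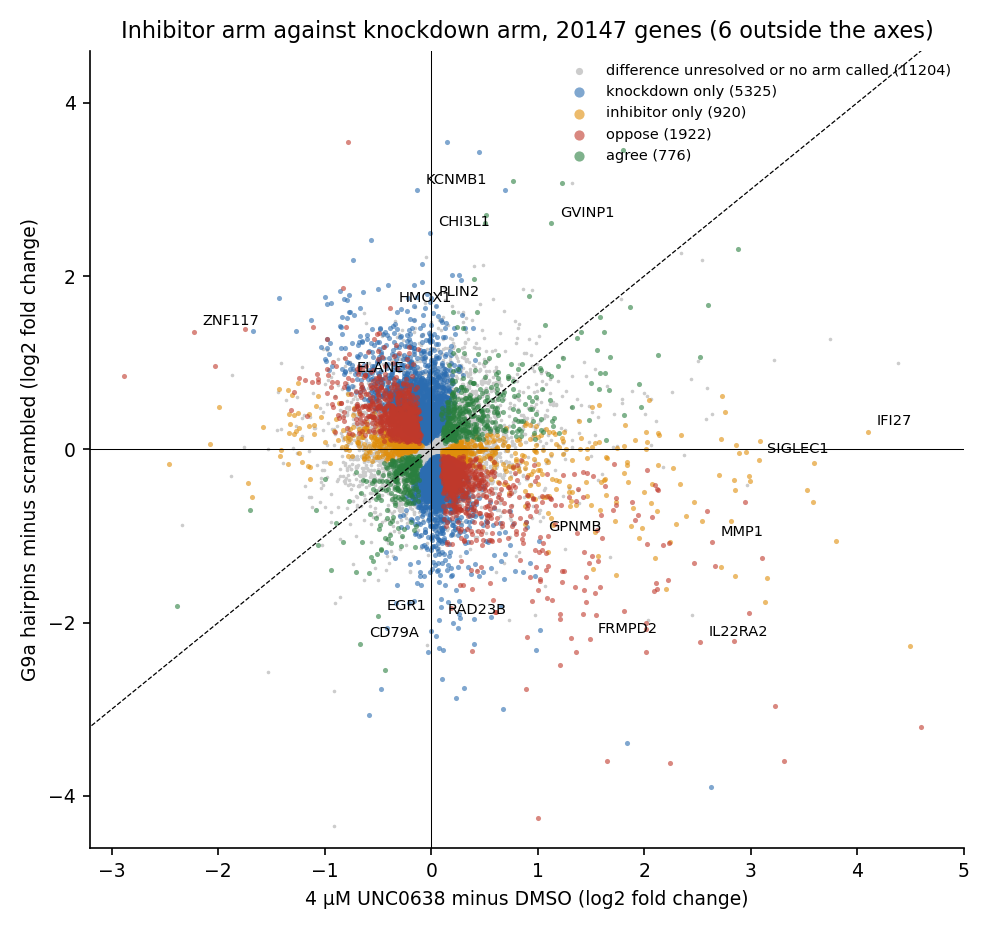
Log2 fold change of each tested gene at 4 µM UNC0638 against DMSO (horizontal) and with the G9a hairpins against scrambled (vertical), coloured by class, with equal change on the dashed line. The opposite genes (1922) fill the upper left and lower right and outnumber the agreeing genes (776) at lower left and upper right; 6 genes lie outside the axes.

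The controls and the replicates bear on these counts. Scrambled and DMSO libraries differed from each other at 6321 genes (31.4%), so many genes reached their class from different starting levels. Of the 918 genes opposing with the inhibitor higher, scrambled was called above DMSO for 485 and below it for 107. Of the 1004 opposing with the inhibitor lower, it was above for 35 and below for 492. Of the 2746 genes lower with the hairpins only, it was above for 1112 and below for 187. Of the 2579 higher with the hairpins only, it was above for 127 and below for 851. Over all 20147 genes, scrambled was called above DMSO for 2990 and below it for 3328. The same control libraries enter the arms, so these counts are not independent of the classes. A comparison of the 4 µM libraries directly with the G9a hairpin libraries, chosen after seeing the data and using neither control, called 11357 genes (56.4%). Of the 9020 genes above, it called 7038 (78%) in the same direction, 224 in the opposite direction, and left 1758 uncalled. Within groups, 47.6% of the replicate deviations lay on a single axis, with DMSO libraries 1 and 3 at its ends (scores of 0.51 and -0.373 after removing group means). With group means kept, in SDs over the libraries, 4 µM library 1 lay furthest out at 2.00, and DMSO libraries 1 and 3 lay at 1.79 and -1.76. Over 10627 genes, the weights on that axis correlated with the inhibitor arm (r = 0.31) and the knockdown arm (r = -0.22). With this axis as a covariate, 67.1% of the genes called in both arms still moved in opposite directions. Without DMSO library 3, the inhibitor arm fell to 2690 called genes and the opposite classes to 584 and 636 genes. Without DMSO library 1 they were 5518, 1465 and 1285.

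Markers of cell identity were checked over the same 15 libraries. Of 30 monocyte and macrophage markers, 25 passed the low-count filter. The summed level of all 30 was 1900 to 2230 CPM in DMSO, 1980 to 2130 at 4 µM, 1620 to 1720 with scrambled, and 1630 to 1800 over both hairpins. Erythroid and epithelial or fibroblast markers summed to at most 17 and 3.11 CPM in any library, and HBA2, HBG1, PF4, KRT5, KRT19, COL3A1 and DCN were at 0 in all 15. Lymphoid markers summed to 288 to 395 CPM over all 14 genes, of which 5 passed the filter. In bulk RNA, a change in the share of cells of a kind and a change in RNA per cell cannot be told apart.

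Interferon-stimulated genes rose broadly with the inhibitor and split with the hairpins. Of 78 tested, 64 rose and 1 fell at 4 µM, whereas 28 rose and 31 fell with the hairpins. Among all genes, 10.2% rose and 9.73% fell at 4 µM, and 25% rose and 24.9% fell with the hairpins. These shares are the background for each gene list below. The median log2 change was 0.84 with the inhibitor and -0.02 with the hairpins, beside -0.01 and 0.01 over all genes. The difference was positive for 55 and negative for 3, so that 74.4% of the members were called in the difference beside 44.8% of all genes. By class, 28 members opposed with the inhibitor higher, 1 opposed with the inhibitor lower, 22 agreed, 11 rose with the inhibitor only and 4 moved with the hairpins only. The other 12 were unresolved or called in neither arm. The list was drawn up with earlier results of these data known, so its counts describe it and do not test it.

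Sequences upstream of 6 of these genes are shown because genes with the same kind of interferon-response letters fell into different classes. Each line gives 120 bases from the 250 upstream of the annotated start, 5′ to 3′ on the gene's strand, from the RefSeq promoter table (build GRCh38.p14). Capitals mark matches, on either strand, to GAAA, any 2 bases and GAAA again, a core of the interferon-stimulated response element; matches that overlap count separately, and no other motif was searched. IFIT1 (chr10:89392470-89392589, plus strand) and CXCL10 (chr4:76023628-76023747, minus strand) opposed, IFI27 (chr14:94110591-94110710, plus strand) and SAMD9 (chr7:93118046-93118165, minus strand) rose with the inhibitor only, and HERC5 (chr4:88456995-88457114, plus strand) and DDX60 (chr4:168318753-168318872, minus strand) rose in both arms.
IFIT1: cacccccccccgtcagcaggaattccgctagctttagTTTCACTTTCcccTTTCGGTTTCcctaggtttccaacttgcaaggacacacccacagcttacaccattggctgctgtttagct
CXCL10: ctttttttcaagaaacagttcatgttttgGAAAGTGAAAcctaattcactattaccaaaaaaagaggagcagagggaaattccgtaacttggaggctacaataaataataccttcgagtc
IFI27: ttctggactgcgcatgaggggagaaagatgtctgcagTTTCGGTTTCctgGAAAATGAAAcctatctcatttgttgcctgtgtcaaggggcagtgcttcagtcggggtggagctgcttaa
SAMD9: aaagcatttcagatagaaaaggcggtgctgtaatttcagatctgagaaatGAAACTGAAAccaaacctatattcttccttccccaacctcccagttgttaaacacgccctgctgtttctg
HERC5: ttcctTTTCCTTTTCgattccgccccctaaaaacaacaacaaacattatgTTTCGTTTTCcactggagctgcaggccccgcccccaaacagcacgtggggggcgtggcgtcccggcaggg
DDX60: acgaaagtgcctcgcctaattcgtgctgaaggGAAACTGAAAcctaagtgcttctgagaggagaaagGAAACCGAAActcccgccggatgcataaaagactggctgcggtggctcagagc
Such a match occurred in 1255 of the 35116 promoter windows of the table (3.57%; each window runs from 250 bases before to 50 bases after the start). Only 11320 of the 20147 tested genes (56.2%) and 57 of the 78 interferon-stimulated genes matched the table by symbol, so a comparison of motif shares between classes is void. The 6 genes were picked after their values were seen, among those in the table with a match.

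IL22RA2, MMP1 and SIGLEC1 were among the 6 genes with the most positive difference, beside IFI27, FRMPD2 and PKD1L1. The 6 were ranked among genes with a mean of at least 2 CPM and a difference called with each hairpin alone. IL22RA2, on chr6:137464968-137494785 (hg19, as are all gene coordinates here), encodes a secreted decoy receptor for interleukin-22. It stood at 5.37, 5.58 and 4.42 CPM in DMSO, 31.2, 28.9 and 27.6 at 4 µM, 8.57, 9.38 and 8.19 with scrambled, 1.49, 1.91 and 1.76 with hairpin 2, and 2.45, 1.83 and 1.80 with hairpin 3. Every treated library lay outside the range of its control, upward with the inhibitor and downward with the hairpins, which gave the largest named difference (4.75 ± 0.12, adjusted p = 2.2e-20 by edgeR's quasi-likelihood test). SIGLEC1, a macrophage sialic acid receptor and interferon-stimulated gene on chr20:3667617-3687775, was at 5.55, 6.28 and 7.82 CPM in DMSO and at 54.6, 54.6 and 57.7 at 4 µM. Its level was 6.85, 6.74 and 7.48 with scrambled, 5.63, 5.59 and 6.24 with hairpin 2, and 7.41, 7.53 and 6.58 with hairpin 3. The SIGLEC1 hairpin libraries as a set overlapped the scrambled ones, and its difference was 3.20 ± 0.11. MMP1, an interstitial collagenase, averaged 7.99 CPM in DMSO and 49.8 at 4 µM, against 2.58 with scrambled and 1.19 and 1.23 with the hairpins (difference 3.71 ± 0.14).

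Members that opposed included sensors, effectors and chemokines of the interferon response. OAS1, an RNA-sensing synthetase whose product switches on RNase L, was at 15.7, 16 and 17.6 CPM in DMSO and at 64.6, 67.3 and 68.8 at 4 µM. With scrambled it was at 10.4, 10.2 and 9.89, with hairpin 2 at 7.64, 8.40 and 8.77, and with hairpin 3 at 8.15, 9.59 and 9.33. All 6 hairpin libraries lay below all 3 scrambled libraries, although the knockdown change (-0.23 ± 0.06) was small beside the inhibitor change (2.02 ± 0.05). TRIM22, an antiviral ubiquitin ligase, moved by 1.44 ± 0.06 with the inhibitor and by -1.18 ± 0.07 with the hairpins. CXCL10 and CXCL11, chemokines that recruit T cells, changed by 2.03 and 1.94 with the inhibitor and by -1.09 and -0.76 with the hairpins. IFIT1, which binds foreign RNA, changed by 1.42 and -0.55, and ISG15, a ubiquitin-like modifier, by 1.71 and -0.17. IRF9, a DNA-binding partner of STAT2, opposed too, at 0.73 and -0.53. IRF1 was the 1 member that opposed the other way, at -0.20 with the inhibitor and 0.57 with the hairpins.

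Genes of the list that rose with the inhibitor only included a transcription factor, IRF7. IRF7 drives interferon production and averaged 19.0 CPM in DMSO and 47.5 at 4 µM, against 11.4 with scrambled and 10.2 and 10.7 with the hairpins (difference 1.44 ± 0.09). CMPK2, a mitochondrial nucleotide kinase, changed by 1.27 ± 0.05 with the inhibitor and by 0.00 ± 0.05 with the hairpins, and SAMD9, an antiviral factor, by 1.24 ± 0.07 and -0.05 ± 0.06. IFI27 averaged 0.525 CPM in DMSO, 8.98 at 4 µM, 0.402 with scrambled, and 0.501 and 0.431 with the hairpins. A separate subset rose in both arms. STAT2 changed by 0.59 and 0.43, IFI35 by 1.09 and 0.86, RSAD2, which makes an antiviral nucleotide, by 0.62 and 0.70, and PARP10 by 0.47 and 0.44. HERC5, the ligase for ISG15, and DDX60, a helicase, rose in both but less with the hairpins, with differences of 0.52 and 0.80. In the opposite direction, UBA7, the enzyme that activates ISG15, rose with the hairpins only (1.13, against 0.17 at 4 µM).

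**Figure D2:**
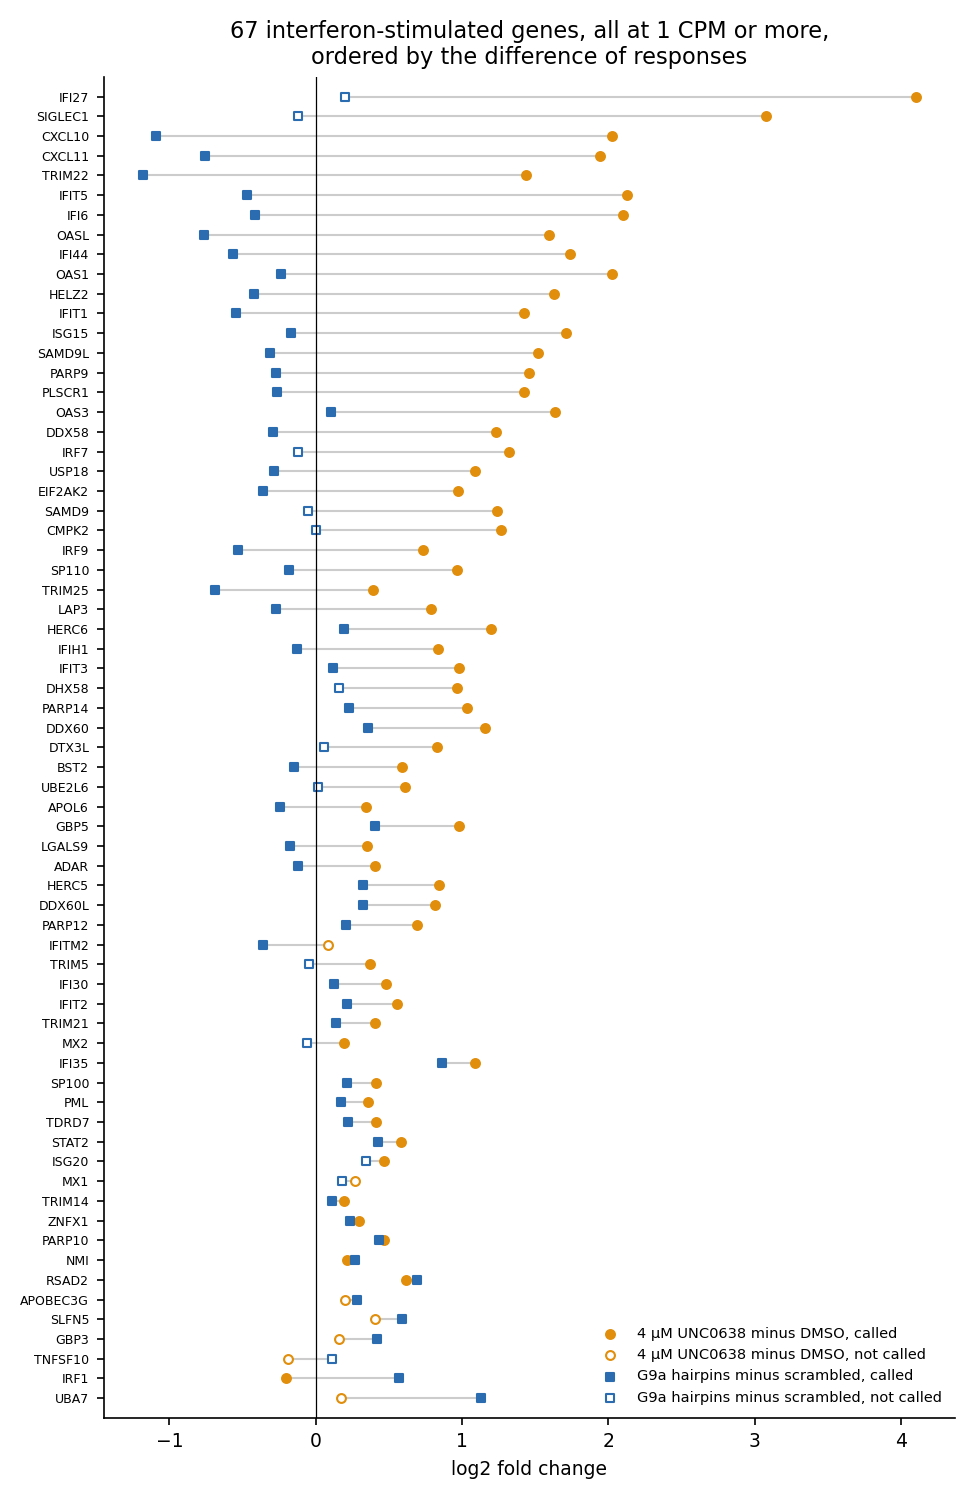
Log2 fold change of 67 interferon-stimulated genes with a mean of at least 1 CPM, at 4 µM UNC0638 (circles) and with the G9a hairpins (squares), ordered by the difference of responses; filled symbols passed the test. The circles lie to the right of 0 for most members while the squares fall on both sides, from TRIM22 at -1.18 to UBA7 at 1.13.

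Reads from interferon genes themselves were few. IFNB1 had 24 counts over the 3 libraries at 4 µM, 10 in DMSO, 12 with scrambled, and 10 and 8 with the hairpins, and passed the test in neither arm. IFNG had no count in these 15 libraries. IFI44L had 172 counts at 4 µM and 6 in DMSO, beside 6 with scrambled, 1 with hairpin 2 and none with hairpin 3, so no fold is given for the hairpins. Of 23 interferons, receptors and nucleic acid sensors tested, 6 rose and 1 fell with the inhibitor and 9 rose and 4 fell with the hairpins. Beside the 10.2%, 9.73%, 25% and 24.9% of all genes in these directions, the falls are not above the background, and the median difference was 0.01. AIM2, a sensor of cytosolic DNA, opposed (0.91 and -0.52), IFI16, a further DNA sensor, rose in both (0.97 and 0.19), and the kinases JAK1 and TYK2 rose with the hairpins (0.31 and 0.22) while TYK2 fell with the inhibitor (-0.19).

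Antigen presentation split by class of molecule. Of 12 genes of MHC class II, which presents peptides from outside the cell, 9 rose and 0 fell with the inhibitor. With the hairpins 2 rose and 7 fell, and the 2 rises are not above the 25% of all genes. The difference was positive for 10 and negative for 0, so 83.3% were called beside 44.8% of all genes. The median log2 change was 0.71 in the inhibitor arm and -0.26 in the knockdown arm. HLA-DRA, on chr6:32407619-32412823, was at 29.5, 30.3 and 28.9 CPM in DMSO and at 69.1, 64.7 and 64.8 at 4 µM. It was at 42.9, 43.3 and 40.8 with scrambled, 20.5, 21.3 and 23.1 with hairpin 2, and 22.4, 23.9 and 28.3 with hairpin 3. The groups of each arm did not overlap, and the scrambled libraries started above DMSO (difference 2.03 ± 0.08). HLA-DRB1 and HLA-DRB5 followed (0.83 ± 0.08 and 1.53 ± 0.09), but these near-identical genes may share reads and are not independent of each other. The class II transactivator CIITA did not rise with the inhibitor (-0.01) and fell with the hairpins (-0.22), and CD74, the invariant chain, was called in neither arm (-0.08 and -0.06).

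MHC class I differed less. Of 22 genes tested, 14 rose and 1 fell with the inhibitor, 9 rose and 2 fell with the hairpins, and the medians were 0.14 and 0.13. The falls are not above the 9.73% and 24.9% of all genes. The difference was called for 68.2%, beside 44.8% of all genes. HLA-B and HLA-C rose in both arms (0.47 and 0.18 for HLA-B, 0.41 and 0.24 for HLA-C). B2M, the shared light chain, and the peptide transporter TAP1 rose with the inhibitor only (0.51 and 0.48, against 0.08 and -0.02). PSMB8, an immunoproteasome subunit, opposed (0.25 and -0.39), and ERAP1, which trims peptides, rose with the hairpins only (0.52, against 0.07).

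Inflammatory genes under NF-kB gave 9 higher and 1 lower of 27 with the inhibitor, and 5 higher and 13 lower with the hairpins. The 1 lower and the 5 higher are not above the 9.73% and 25% of all genes. The difference was positive for 14 and negative for 3, so 63% were called beside 44.8% of all genes. Several chemokines opposed. CCL2, which attracts monocytes, was at 51.1, 51.4 and 49.3 CPM in DMSO, 102, 101 and 101 at 4 µM, 93.3, 99.1 and 94.0 with scrambled, 29.6, 32.0 and 30.7 with hairpin 2, and 29.7, 29.9 and 34.3 with hairpin 3. The scrambled libraries of CCL2 sat near the 4 µM libraries, so its rise from DMSO ended at about the level the scrambled cells held without inhibitor; its difference was 2.63 ± 0.06. CCL3 (0.52 and -0.88), CCL20 (0.84 and -0.79) and IL8 (0.52 and -0.75) showed the same pair of directions. TNF fell with the hairpins only (-0.85, against -0.12).

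Granule genes ran the other way. Of 23 myeloid granule and progenitor genes, 0 rose and 14 fell with the inhibitor, while 12 rose and 7 fell with the hairpins. The difference was negative for 13 and positive for 3, beside 22.3% and 22.5% of all genes, and 8 opposed with the inhibitor lower. ELANE, neutrophil elastase, on chr19:851014-856242, was at 427, 479 and 496 CPM in DMSO and at 260, 271 and 285 at 4 µM. It was at 482, 437 and 477 with scrambled, 896, 803 and 723 with hairpin 2, and 856, 853 and 805 with hairpin 3. The controls overlapped and the treated groups stood clear on either side (difference -1.60 ± 0.08). CTSG, AZU1, PRTN3 and RNASE3, further azurophil or eosinophil granule proteins, opposed in the same way, with differences of -0.95, -1.26, -1.55 and -1.37. LYZ, lysozyme, rose with the hairpins only (0.95 ± 0.04, against -0.01 ± 0.04), and BPI and MS4A3 fell in both arms (-0.89 and -0.85 for BPI, at a mean of only 0.338 CPM, and -0.46 and -0.37 for MS4A3).

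The monocyte and macrophage markers did not move as 1 block. Of 25 tested, 13 rose and 4 fell with the inhibitor, beside 10.2% and 9.73% of all genes. With the hairpins 14 rose and 3 fell, beside 25% and 24.9%, so the 3 falls are not above the background. The difference was called for 44% of these markers, near the 44.8% of all genes. The markers higher in both arms included CD68, CD86, FCGR2A, MARCO, FCN1 and TREM2. MARCO, a scavenger receptor, was at 15.5, 14.8 and 14.5 CPM in DMSO, 33.2, 33.4 and 35.5 at 4 µM, 11.9, 12.2 and 12.5 with scrambled, 23.6, 20.7 and 24.6 with hairpin 2, and 24.1, 25.3 and 24.8 with hairpin 3. Both arms rose without overlap (1.19 ± 0.06 and 0.97 ± 0.06). TREM2, a lipid receptor of macrophages, changed by 1.40 and 1.36 at a low mean level of 0.677 CPM. Its relative TREM1, which amplifies inflammation, opposed, with 0.47 ± 0.04 and -1.36 ± 0.04. CD36, the fatty acid and oxidised lipoprotein receptor, opposed as well. Its levels were 59.9, 52.1 and 51.2 CPM in DMSO and 146, 141 and 135 at 4 µM, but 117, 125 and 107 with scrambled, 58.9, 66.8 and 63.1 with hairpin 2, and 58.9, 54.2 and 56.4 with hairpin 3. The hairpin libraries came down to about the DMSO range from a scrambled control about as high as the inhibitor libraries (difference 2.33 ± 0.08). CSF1R, the receptor for macrophage colony-stimulating factor, opposed in reverse, at -0.26 ± 0.08 and 0.75 ± 0.07.

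**Figure D3:**
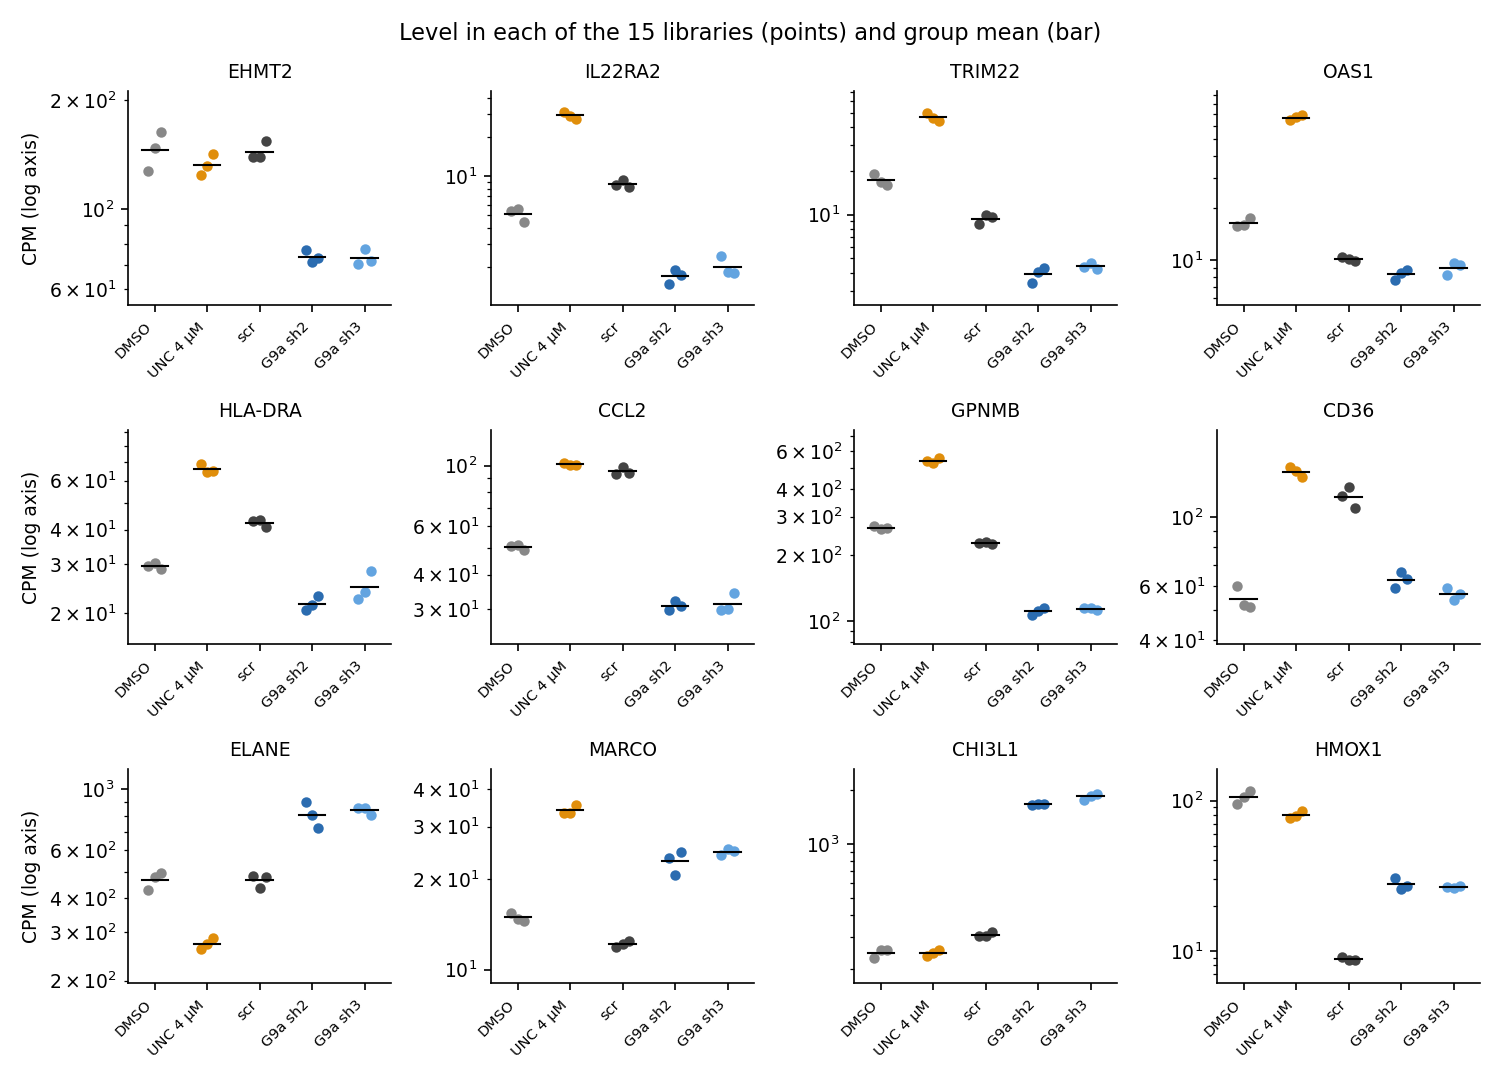
Level in CPM (log axis, range set per panel) of 12 genes in each of the 15 libraries (points) with the group mean (bar). EHMT2 is lower in the hairpin libraries only, IL22RA2, TRIM22 and GPNMB part in opposite directions from their controls, MARCO rises in both arms, CHI3L1 with the hairpins only, and HMOX1 starts from unlike controls.

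Many lysosome genes rose in both arms: 15 rose and 1 fell of 34 with the inhibitor, 24 rose and 2 fell with the hairpins, and 12 agreed. Among all genes, 10.2% rose with the inhibitor, 25% with the hairpins and 2.2% in both. CTSD, the main aspartic protease of lysosomes, changed by 0.37 and 0.77, PSAP, the precursor of the saposins, by 0.30 and 0.46, and ASAH1, acid ceramidase, by 0.49 and 0.40. The members with the smallest p of the difference broke from that pattern. GPNMB, a glycoprotein of lysosomes and melanosomes, was at 273, 263 and 265 CPM in DMSO, 540, 530 and 554 at 4 µM, 227, 229 and 224 with scrambled, 106, 111 and 114 with hairpin 2, and 114, 115 and 112 with hairpin 3. Its arms were near mirror images (1.02 ± 0.03 and -1.01 ± 0.03). NPC1, the lysosomal cholesterol exporter, rose with the inhibitor only, from 269, 275 and 293 to 592, 634 and 661 CPM (1.17 ± 0.04, against 0.06 ± 0.04 with the hairpins). ATP6V1A, a subunit of the proton pump, fell with the hairpins only (-0.72 ± 0.04, against 0.04 ± 0.04).

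Sterol synthesis genes gave 11 higher and 2 lower of 25 with the inhibitor, and 2 higher and 15 lower with the hairpins. The 2 lower and the 2 higher are not above the 9.73% and 25% of all genes. The difference was positive for 17 and negative for 1, so 72% were called beside 44.8% of all genes. INSIG1, a brake on the pathway, changed by 0.28 ± 0.05 and -0.70 ± 0.04, and SCD, stearoyl-CoA desaturase, by 0.23 ± 0.04 and -0.71 ± 0.03. INSIG1 averaged 58.5 CPM in DMSO, 71.0 at 4 µM, 97.4 with scrambled, and 61.7 and 58.5 with the hairpins, so its controls were further apart than its inhibitor and hairpin libraries. In lipid storage, PLIN2, the coat protein of lipid droplets, rose with the hairpins only (1.70 ± 0.04, against -0.01 ± 0.04), from 71.7 CPM with scrambled to 220 and 246, while DMSO already held 191 and 4 µM 190. CPT1A, which commits fatty acids to oxidation, opposed (-0.33 ± 0.04 and 0.75 ± 0.04).

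Ribosome biogenesis and MYC genes mostly fell with the hairpins and, where called, mostly rose slightly with the inhibitor: 1 rose and 29 fell of 33 with the hairpins, 12 rose and 1 fell with the inhibitor, and 27 differences were positive and 1 negative. The medians were -0.29 and 0.08, and 84.8% were called in the difference beside 44.8% of all genes. HSPD1, a mitochondrial chaperone, changed by 0.19 ± 0.04 and -0.45 ± 0.03, NCL, nucleolin, by 0.13 ± 0.03 and -0.36 ± 0.03, and MRTO4, a ribosome assembly factor, by 0.19 ± 0.04 and -0.34 ± 0.03. Of 30 amino acid and endoplasmic reticulum stress genes, 6 rose and 17 fell with the hairpins and 6 rose and 4 fell with the inhibitor, beside 25% and 24.9% of all genes with the hairpins and 10.2% and 9.73% with the inhibitor. TRIB3, a stress-induced pseudokinase, went from 162, 149 and 154 CPM with scrambled to 85.8, 81.1 and 81.1 with hairpin 2 and 83.9, 84.4 and 79.7 with hairpin 3. Its inhibitor change was 0.09 ± 0.04, and its difference 1.00 ± 0.05.

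Hypoxia and glycolysis genes mostly fell with the inhibitor. Of 30, 0 rose and 21 fell with the inhibitor, 5 rose and 16 fell with the hairpins, and 12 fell in both. Among all genes, 9.73% fell with the inhibitor, 24.9% with the hairpins and 1.65% in both. The 5 rises with the hairpins are not above the 25% of all genes. PDK1, a pyruvate dehydrogenase kinase, changed by -0.46 and -0.46, P4HA1, a collagen hydroxylase, by -0.38 and -0.40, and the glucose transporter SLC2A3 by -0.37 and -0.83. Some of these genes had wide gaps between the controls. PFKFB4, a regulator of glycolysis, fell from 82.7 to 48.4 CPM with the inhibitor and from 18.3 to 11.3 and 12.8 with the hairpins. ADM, adrenomedullin, fell by 1.08 and 0.70 on the log2 scale in the arms, while scrambled already lay 2.46 log2 units under DMSO. NDRG1, induced by hypoxia, opposed (-0.70 and 0.52), and its difference of -1.22 turned to 0.89 without controls. Among oxidative stress genes, HMOX1, heme oxygenase 1, was at 94.9, 106 and 115 CPM in DMSO and at 77.0, 79.4 and 85.2 at 4 µM. It was at 9.05, 8.65 and 8.73 with scrambled, 30.7, 25.9 and 27.0 with hairpin 2, and 26.6, 26.2 and 27.0 with hairpin 3. The scrambled libraries were far below DMSO, the hairpins lay between, and the difference (-2.01 ± 0.09) reversed to 1.56 without controls; what sets the control levels apart was not tested.

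**Figure D4:**
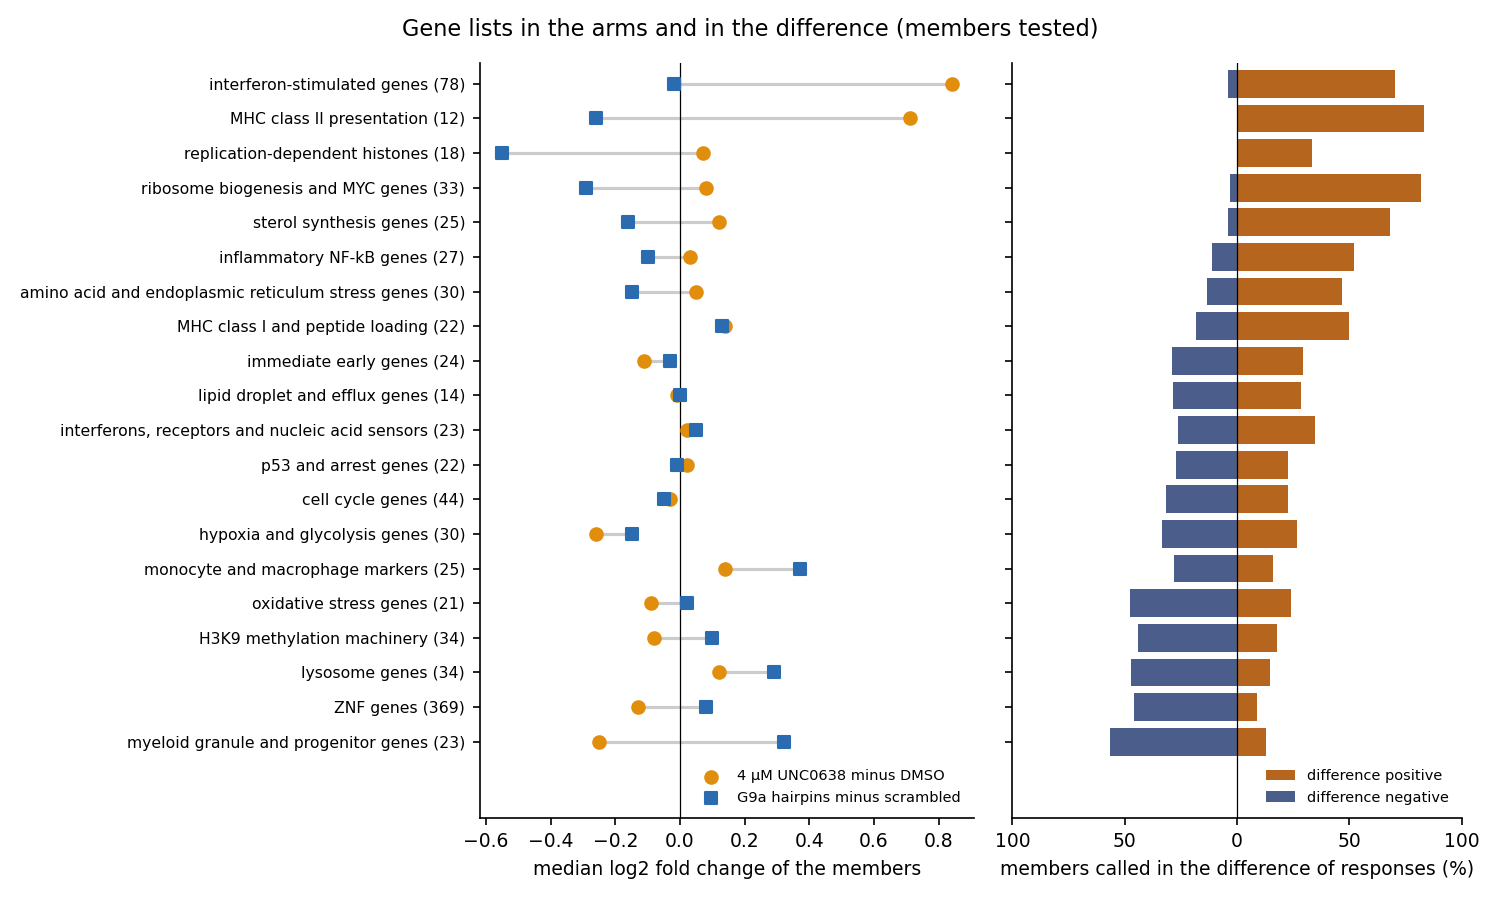
Median log2 fold change of each gene list at 4 µM UNC0638 (circles) and with the G9a hairpins (squares), left, and the percent of members called with a positive or negative difference of responses, right, with members tested in parentheses. Lists are ordered by their median difference. Interferon-stimulated, MHC class II, replication-dependent histone, ribosome biogenesis and sterol lists lie at the positive end, and granule and ZNF lists at the negative end. Over all genes, 22.5% were called positive and 22.3% negative.

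ZNF genes, mostly zinc finger proteins of the KRAB family that bind repeats and recruit H3K9 methylation, gave more called decreases than increases with the inhibitor and the reverse with the hairpins. Of 369, 11 rose and 125 fell with the inhibitor, beside 10.2% and 9.73% of all genes. With the hairpins 124 rose and 59 fell, beside 25% and 24.9%, so the 59 falls are not above the background. The difference was negative for 169 and positive for 33, beside 22.3% and 22.5%. ZNF117 had the most negative named difference (-3.59 ± 0.16). It was at 6.13, 5.45 and 5.56 CPM in DMSO, 1.44, 1.38 and 0.882 at 4 µM, 2.78, 3.74 and 2.90 with scrambled, 7.26, 8.70 and 7.91 with hairpin 2, and 8.63, 7.93 and 8.59 with hairpin 3. ERV3-1, an endogenous retroviral envelope gene, overlaps ZNF117 on the same strand (chr7:64451187-64467121, against chr7:64432154-64467062 for ZNF117). ERV3-1 opposed too (-2.99 ± 0.15), and reads of the pair may not be separable. ZNF136, ZNF850 and ZNF845, on chromosome 19, fell with the inhibitor only (-0.87, -0.81 and -1.14, against 0.11, 0.14 and -0.20).

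The H3K9 methylation machinery showed 1 gene higher and 9 lower of 34 with the inhibitor and 16 higher and 7 lower with the hairpins. Over all genes the shares were 10.2% and 9.73% with the inhibitor and 25% and 24.9% with the hairpins, so the 7 lower genes are not above the background. SETDB1, UHRF1, DNMT1 and CBX5 opposed with the inhibitor lower (differences -0.34, -0.38, -0.37 and -0.48), and CBX3 opposed with the inhibitor higher (0.56). DNMT3B, a de novo DNA methyltransferase, fell in both arms (-0.12 ± 0.04 and -0.60 ± 0.04). Among 44 cell cycle genes, 3 rose and 7 fell with the inhibitor and 14 rose and 17 fell with the hairpins, and in 22 p53 and arrest genes 3 rose and 3 fell with the inhibitor and 9 rose and 6 fell with the hairpins. The difference was called for 54.5% and 50% of these lists, near the 44.8% of all genes. Of 18 replication-dependent histone genes, 0 passed the test with the inhibitor and 7 fell with the hairpins, HIST1H2AC by 1.57 on the log2 scale, beside 24.9% of all genes. The difference was called for 33.3% of these histone genes, under the 44.8% of all genes; most such transcripts lack a poly(A) tail.

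Genes outside these lists show each class at its clearest. KCNMB1, a potassium channel subunit, and CHI3L1, a secreted chitinase-like protein of macrophages, rose with the hairpins only. CHI3L1, on chr1:203148059-203155877, was at 230, 253 and 253 CPM in DMSO and 234, 244 and 254 at 4 µM, but went from 305, 303 and 320 with scrambled to 1650, 1670 and 1680 with hairpin 2 and 1760, 1860 and 1900 with hairpin 3. The inhibitor and DMSO libraries overlapped and the hairpin libraries stood far above scrambled (difference -2.51 ± 0.06). KCNMB1 changed by -0.14 ± 0.08 and 2.99 ± 0.07. RAD23B, a nucleotide excision repair factor, fell with the hairpins only. It was at 268, 261 and 252 CPM in DMSO, 272, 277 and 273 at 4 µM, 297, 304 and 284 with scrambled, 75.6, 76.2 and 75.8 with hairpin 2, and 77.3, 74.1 and 71.2 with hairpin 3. Its knockdown change was -1.98 ± 0.03, beside -0.97 for EHMT2. SEMA4C (-2.15 ± 0.05) and TRIM71 (-2.29 ± 0.10) also fell with the hairpins only.

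GVINP1, a pseudogene of a very large interferon-inducible GTPase, rose in both arms, from 7.44, 6.91 and 6.74 to 16, 15.9 and 14.3 CPM with the inhibitor and from 5.91, 6.40 and 6.04 to 35.4, 38.0 and 38.4 with hairpin 2 and 39.8, 38.5 and 34.8 with hairpin 3. The direction agreed but the size did not, with a difference of -1.48 ± 0.09. TFEC, a transcription factor of macrophages, rose by 0.92 ± 0.09 and 1.76 ± 0.08. CD79A, part of the B cell receptor complex, fell in both, by 0.67 and 2.24 on the log2 scale, and EGR1, an immediate early transcription factor, fell by 0.50 and 1.92. SYTL1, a vesicle trafficking protein, fell with the inhibitor only (-1.22 ± 0.09, against 0.11 ± 0.07). FRMPD2, HS3ST2 and KRT9 opposed with the inhibitor higher, with differences of 3.68, 3.11 and 2.64, and MYO15B with the inhibitor lower (-2.22).

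In the repeat table, which sums counts by repeat name over all genomic copies, 929 names were tested with the library sizes of the gene table. The difference of responses was called for 593 (63.8%), 40 positive (4.31%) and 553 negative (59.5%). The inhibitor changed 63 names (6.78%; 24 higher, 2.58%, and 39 lower, 4.2%), and the hairpins 677 (72.9%; 639 higher, 68.8%, and 38 lower, 4.09%). The median log2 change was -0.06 with the inhibitor and 0.28 with the hairpins. By class, 491 names (52.9%) rose and 22 (2.37%) fell with the hairpins only. With the inhibitor only, 6 (0.646%) rose and 4 (0.431%) fell. In the opposite classes, 32 (3.44%) were lower and 6 (0.646%) higher with the inhibitor, and 7 (0.753%) were higher and 3 (0.323%) lower in both arms. Without DMSO library 3, the opposing names fell from 38 to 14 and those called at 4 µM from 63 to 32. Another 121 (13%) were called in 1 arm without a called difference, and 237 (25.5%) in neither.

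The broad rise with the hairpins was also a rise in the repeat share of the whole library. Repeat counts per 100 gene counts were 5.77 to 6.10 in DMSO, 5.38 to 5.88 at 4 µM, 5.63 to 5.85 with scrambled, 6.88 to 7.02 with hairpin 2, and 6.45 to 7.14 with hairpin 3. The G9a hairpin libraries did not overlap the scrambled ones. This rise was not particular to them: the share was 7.22 to 7.64 with SUV39H1 hairpin 2 and 7.74 to 7.84 with SUV39H1 hairpin 4. Of the 491 names higher with the G9a hairpins only, 461 were also called higher with the SUV39H1 hairpins against scrambled. Among all 929 names, 722 were called there in the direction of the knockdown arm. When the repeat table's own library sizes were used, which removes such a shared shift, the difference was called for 295 names, 170 positive and 125 negative, and 93 rose with the hairpins only. Repeat copies inside introns or untranslated parts of genes are counted with their host transcripts, and their part in this shift was not tested.

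By family, older LINE-1 elements had a negative difference for 84 of 95 names, Alu elements for 31 of 36, and young LINE-1 elements for 7 of 9, with medians of -0.37, -0.38 and -0.50. Over all repeats, 59.5% of names had a negative difference, with a median of -0.33. With the repeat table's own sizes, the negative differences were 22 of 95, 4 of 36 and 6 of 9, with medians of -0.05, -0.06 and -0.18 beside 13.5% and -0.01 over all repeats. MER61, an LTR family, gave 3 positive and 1 negative difference among 7 names (median 0.01), and 4 and 0 with the own sizes (median 0.33). L1M3a, an older LINE-1, opposed. It was at 10.0, 8.53 and 8.20 CPM in DMSO, 6.89, 5.53 and 5.85 at 4 µM, 8.06, 8.77 and 7.58 with scrambled, 12.9, 13.7 and 13.8 with hairpin 2, and 13.5, 12.6 and 13.2 with hairpin 3. The groups of each arm did not overlap (difference -1.26 ± 0.11).

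MER53, a DNA transposon, opposed the other way: 264, 193 and 184 CPM in DMSO, 352, 272 and 241 at 4 µM, 196, 236 and 164 with scrambled, and 119 to 139 over the hairpins. Its DMSO and 4 µM libraries overlapped and spread widely (difference 1.04 ± 0.17). LTR13_, an LTR of HERVK elements, fell in both arms, from 6.09, 6.18 and 6.07 to 4.07, 4.38 and 4.09 CPM with the inhibitor and from 6.40, 6.30 and 7.39 to 1.98 to 2.98 with the hairpins (-0.55 ± 0.09 and -1.52 ± 0.08). THE1A-int fell with the hairpins only (-0.40 ± 0.03, against 0.09 ± 0.04), and SST1, a satellite, was called with the inhibitor only, from 236, 264 and 271 to 167, 177 and 162 CPM (-0.61 ± 0.06), to near its scrambled level of 146, 152 and 161. With the repeat table's own sizes, THE1A-int was also called higher with the inhibitor (0.15). With the same sizes, SST1 also fell with the hairpins (-0.16, adjusted p = 0.0121), and without controls its difference was 0.04.

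**Figure D5:**
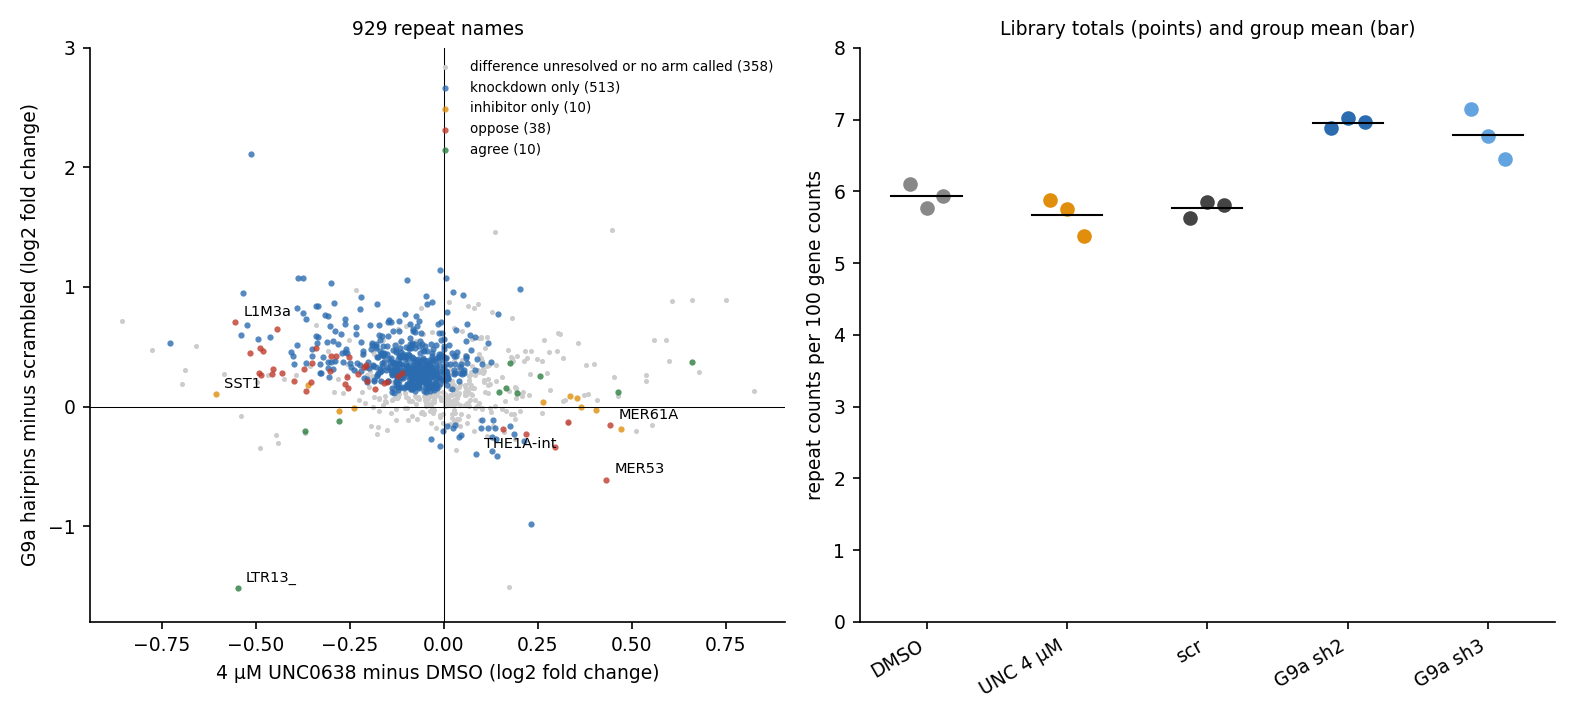
Left, log2 fold change of 929 repeat names at 4 µM UNC0638 (horizontal) and with the G9a hairpins (vertical), coloured by class and scaled to gene counts; right, repeat counts per 100 gene counts in each library (points) and the group mean (bar). The 491 names that rose with the hairpins only form the body of the left panel, and the hairpin libraries lie above the other 3 groups in the right panel, from 6.45 to 7.14.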

How the data were processed

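Total RNA from U937 cells was made into TruSeq RNA v2 libraries, a kit that does not mark strand, per the labels. The authors deposited raw counts per gene and per repeat name for 24 libraries; STAR, featureCounts and hg19 are named in the submitters' processing notes, with versions, annotation and the handling of reads in several places not given in the sources used here. Overlapping, antisense and near-identical genes can therefore share reads. Of 55773 genes and 992 repeat names, 20147 and 929 passed edgeR's filterByExpr (minimum count 10, minimum total 15). Counts were fitted with edgeR 4.0.16 in R 4.3.3 (quasi-likelihood, 1 mean per group over all 8 groups, TMM factors, Benjamini-Hochberg adjustment over all features). Repeats took the gene table's library sizes and TMM factors. The 15 libraries compared hold 31851239 to 52218785 gene counts and 1837411 to 3337642 repeat counts, and the common coefficient of variation was 4.63%. Standard errors are the log2 change divided by the root of the F statistic; they leave out any difference between the hairpins, so each hairpin was also tested alone.

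The comparison and the gene lists were chosen with earlier results of these data known. Named genes need a mean of at least 2 CPM over the 15 libraries and a single locus. They are the 6 most positive and 6 most negative differences and 5 of each class and direction. Each list adds 3 members by the p of the difference, which had to be called. The most positive and negative differences were also called with each hairpin alone against the inhibitor arm. For classes, each hairpin change had to be called in its direction, except inhibitor only, where neither was. A gene named for 1 arm only needs a log2 change under 0.2 in the other arm. Other list members are given as examples chosen after their values were seen. Promoters are RefSeq sequence of build GRCh38.p14, matched by symbol, and no coordinate was converted between builds. DESeq2 1.42.0, other filters and scalings, a replicate block and leaving out each library were tried as alternatives. Scripts were checked on simulated counts. Replicate pairs differed by more than sampling noise (chi-square per degree of freedom 2.08 to 22.1). Each library was counted as 1 sample, though such a spread can be technical and does not show separate cultures. A few genes that meet these rules are not reported here.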

Additional observations from a re-analysis of the deposited data

Results flagged for a closer look

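The G9a hairpins differed from each other at 2 genes by edgeR's quasi-likelihood test, which bears on their use as an average. EGR1 was lower with hairpin 2 than with hairpin 3 by a log2 difference of -0.65 (adjusted p = 0.0099), at 9.11, 8.65 and 9.18 CPM against 13.0, 14.2 and 14.9. Each hairpin on its own lowered EGR1, by 2.25 and 1.60 on the log2 scale, so the agreement with the inhibitor arm does not rest on the average. HSPA6, an inducible heat shock protein, was higher with hairpin 2 by 0.49 (adjusted p = 0.0099), at 6.03, 6.12 and 5.95 CPM against 4.38, 4.82 and 3.74. HSPA6 fell with the inhibitor (-0.51), and its hairpin average (0.06) joins a change of 0.30 with 1 hairpin and -0.19 with the other; the hairpin 2 change passed the test (adjusted p = 0.0019) and the hairpin 3 change did not (0.0592).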

How the results depend on the processing

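Of 128 named differences, 112 kept their direction and their side of the threshold under every alternative set out for this comparison that applied to them (23 for the 99 genes, 24 for the 29 repeats). Over 2973 values, 2930 did so, 34 lost the call, 5 gained it and 4 changed sign, with only PFKFB4 among these still called. The cause of each change below was not tested unless the setting's own construction gives it.

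Leaving out each library in turn gave 8141 to 9389 genes in the difference (4045 to 4962 positive, 3989 to 4608 negative), 2690 to 5518 at 4 µM and 8600 to 10491 with the hairpins. The classes ran from 360 to 518 (agree higher), 228 to 481 (agree lower), 584 to 1465 (oppose, inhibitor higher), 636 to 1285 (oppose, inhibitor lower), 338 to 655 and 289 to 602 (inhibitor only higher and lower), and 2145 to 2712 and 2370 to 3021 (knockdown only higher and lower), with 66.7 to 73.8% of genes called in both arms opposite. The lows at 4 µM and in the opposite classes came without DMSO 3 and the highs without DMSO 1; agree lower was lowest without DMSO 2. Repeats ran from 524 to 608 in the difference (35 to 48 positive, 477 to 568 negative), 32 to 74 at 4 µM, 613 to 689 with the hairpins, 5 to 13 agreeing, 14 to 50 opposing and 422 to 513 knockdown only higher; 4 µM and opposing repeats were fewest without DMSO 3, and agreeing repeats without 4 µM library 2.

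A fit of the compared libraries alone gave 218 genes lower in both arms. With 2 µM in place of 4 µM, the inhibitor arm held 1444 genes, 171 and 98 agreed (higher, lower), and 337 and 380 opposed (inhibitor higher, lower). With the inhibitor only, 191 and 152 moved (higher, lower), and 5 repeats agreed. PFKFB4 reversed (0.29), while MARCO changed sign without a call (-0.06). With the repeat table's own library sizes, 295 repeats were called in the difference (170 positive, 125 negative), 95 at 4 µM, 363 with the hairpins, and 93 rose with the hairpins only. Under it the hairpin change reversed for Charlie6 (-0.11) and MER117 (-0.14). SST1 was called lower (-0.16) after a main hairpin change that was not called. The difference changed sign without a call for LTR16A (0.14) and HERV3-int (0.08).

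The replicate numbers did not pair the libraries across all groups. The 30 same-numbered pairs correlated between -0.588 and 0.77, 11 of them above 0.1, and 6 of 15 libraries correlated best with their own number. Between 4 µM and DMSO, libraries 1 and 3 correlated at 0.661 and 0.685, and libraries 2 at -0.021. Between DMSO and scrambled these values were 0.454, 0.77 and -0.425, and between 4 µM and scrambled 0.436, 0.668 and 0.061. With a replicate block, 9462 genes and 604 repeats were called in the difference, 4642 genes at 4 µM, and 71.5% of genes called in both arms were opposite.

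The remaining settings were chosen after seeing the data. The replicate axis as a covariate gave 519 genes lower in both arms, 101 repeats at 4 µM and 67 opposing repeats. Without DMSO 1 and scrambled 3, 1497 genes opposed with the inhibitor higher, and 77.1% of genes called in both arms were opposite. Without controls, the difference was called in reverse for ADM (2.08), PFKFB4 (2.00), NDRG1 (0.89), KDM3A (0.22), BNIP3L (0.50), HMOX1 (1.56), SLC48A1 (0.23) and HERV3-int (0.18). Charlie6 was called at -0.19 after a main difference that was not called. PRTG (-0.09), HIST1H2BK (-0.16), SST1 (0.04) and ALINE (-0.06) changed sign without a call. Depth limits genes with few counts, such as IFNB1, and counts cover sampling error only.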

Other observations

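Agreement in direction could hide unlike sizes, and a few further genes show it. FGD2, an exchange factor for CDC42, rose in both arms but by 0.51 ± 0.15 with the inhibitor and 2.70 ± 0.13 with the hairpins. PPARG, a nuclear receptor of lipid metabolism, rose almost equally (0.39 and 0.38), as did SCARB2, a lysosomal membrane receptor (0.29 and 0.31). CD14, CD163 and FCGR3A, further monocyte markers, had fitted inhibitor changes of 1.15, 2.44 and 2.01 and knockdown changes of 0.51, 0.82 and 0.41, each at a mean under 0.3 CPM, called with the inhibitor and not with the hairpins, and without a called difference.

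Compared straight with the hairpin libraries, EHMT2 was higher at 4 µM by 0.85 ± 0.05, close to its difference of responses (0.83 ± 0.08).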
